A study of Rattus norvegicus with 12 samples.

Results

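The MAP kinase phosphatases are dual-specificity (Dusp) enzymes, and their transcripts were examined in PC12 cells, a rat pheochromocytoma line, after addition of PACAP38 (pituitary adenylate cyclase-activating polypeptide, the long form). Members were taken by name: Dusp1, Dusp2, Dusp4, Dusp5, Dusp6, Dusp7, Dusp8, Dusp10, Dusp14 and Dusp16, and every non-control probe whose gene name in the scanner files equals one of these 10 symbols. The rule used no measured value. It found 10 probes for 9 of the 10 genes among 41012 probes with 33212 gene names: Dusp16 had 2 probes, the other genes with a probe had 1, and no probe carried the name Dusp10. The study compared cells that had received PACAP38 at 1e-07 M for 5, 10, 15, 30, 60 or 120 min with control cells of the same time point. The control cells had no PACAP38 added, as the study describes the comparison, and all cells grew in the same medium with fetal bovine and horse serum. For each time point, RNA of the PACAP38 cells and RNA of the control cells, each pooled from n = 6, were hybridised together on 2 arrays with the dyes Cy3 and Cy5 exchanged, which makes 12 arrays. The dye exchange used the same pools, so a time point is 1 replicate and a difference at a single time point has no test; the spread between its arrays is technical. PC12 is 1 cell line, and PC12 cells stand for chromaffin or sympathetic neurons only as a tumour-derived model.

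MAP kinases are switched on when a threonine and a tyrosine of their activation loop are both phosphorylated, and these phosphatases remove both phosphates. Dusp1, Dusp2, Dusp4 and Dusp5 are nuclear enzymes whose genes are known as inducible by the kinases they inactivate, Dusp6 and Dusp7 are cytoplasmic and prefer ERK, Dusp8, Dusp10 and Dusp16 act mainly on JNK and p38, and Dusp14 is a small atypical member that lacks the kinase-binding domain. In PC12 cells the duration of ERK signalling is known to separate proliferation from neurite outgrowth, and PACAP acts there through a receptor coupled to adenylate cyclase.

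Of the defining genes of PC12 cells, 9 had a probe (Th, Dbh, Ddc, Chga, Chgb, Slc18a1, Phox2a, Gap43 and the PACAP receptor Adcyap1r1), and all 9 were well above background in the control RNA on all 12 arrays. Among markers of other cells, Lum, Gfap, Ptprc, Pecam1, Cdh5 and the 4 adrenal cortex genes were at 0 of 12 arrays, whereas Col1a1 and Cd68 were above background on 12, Col1a2 on 11, Aqp4 on 10, Dcn on 5 and Mbp on 3. In RNA from whole cultures, fewer cells of a type and less RNA per cell cannot be told apart.

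The promoters of the 3 genes that were counted as higher are shown first, because the motifs in them can be set beside the time courses. Each sequence is the 250 bases before the annotated start, from RefSeq on the build GRCr8, 5′ to 3′ on the gene's strand, with matches in capitals. The capitals mark, in Dusp1, the cAMP response element TGACGTCA (CRE), the short CRE TGACG and the E-box CACGTG, in Dusp5 the short CRE and the CArG box, the element bound by serum response factor, and in Dusp2 the E-box and the short CRE.
Dusp1 promoter, chr10:17184603-17184852, + strand: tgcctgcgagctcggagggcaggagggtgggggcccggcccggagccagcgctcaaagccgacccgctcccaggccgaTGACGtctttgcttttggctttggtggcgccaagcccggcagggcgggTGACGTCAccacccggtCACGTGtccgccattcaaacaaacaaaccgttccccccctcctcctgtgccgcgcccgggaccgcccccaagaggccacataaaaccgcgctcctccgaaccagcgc
Dusp5 promoter, chr1:262543524-262543773, + strand: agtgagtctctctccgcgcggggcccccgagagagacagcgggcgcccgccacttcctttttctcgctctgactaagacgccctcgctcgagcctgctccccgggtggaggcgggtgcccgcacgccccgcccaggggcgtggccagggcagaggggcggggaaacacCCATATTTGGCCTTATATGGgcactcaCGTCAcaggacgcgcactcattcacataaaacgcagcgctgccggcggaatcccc
Dusp2 promoter, chr3:135009386-135009635, + strand: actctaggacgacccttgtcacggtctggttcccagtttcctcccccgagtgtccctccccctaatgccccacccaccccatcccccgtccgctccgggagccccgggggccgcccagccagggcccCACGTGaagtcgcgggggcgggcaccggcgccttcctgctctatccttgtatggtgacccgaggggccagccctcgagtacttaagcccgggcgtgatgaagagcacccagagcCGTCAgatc

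All motifs were searched on both strands in windows from 250 bases before to 50 bases after the start. A promoter was found for 9 of the 10 genes, with 3 windows for Dusp14 and 1 for each other gene. The full CRE stood only in Dusp1, from base -124 to -117 before the start, and was present in 1.83% of all 33469 promoter windows of the table. Its 8 letters read the same on both strands, so it also gives 2 of the 3 short CRE matches of Dusp1, and the other began at base -172. The short CRE was present in 21.2% of all windows, and among the genes it stood in Dusp1, in Dusp2 from base -9 to -5, in Dusp5 from base -55 to -51, in Dusp16 and in 1 of the Dusp14 windows. The CArG box, present in 1.64% of all windows, occurred in Dusp5 alone, where its 2 matches lay side by side from base -82 to -63. The E-box, in 6.42% of all windows, stood in Dusp1 and Dusp2, and the AP-1 site TGANTCA, in 7.33%, in 1 Dusp14 window. The EGR site GCGTGGGCG, in 0.544% of all windows, had no match in any of them. The windows of Dusp6, Dusp7, Dusp8 and Dusp10 held none of these letters. A match describes the sequence and does not show that a factor binds there.

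**Figure D1:**
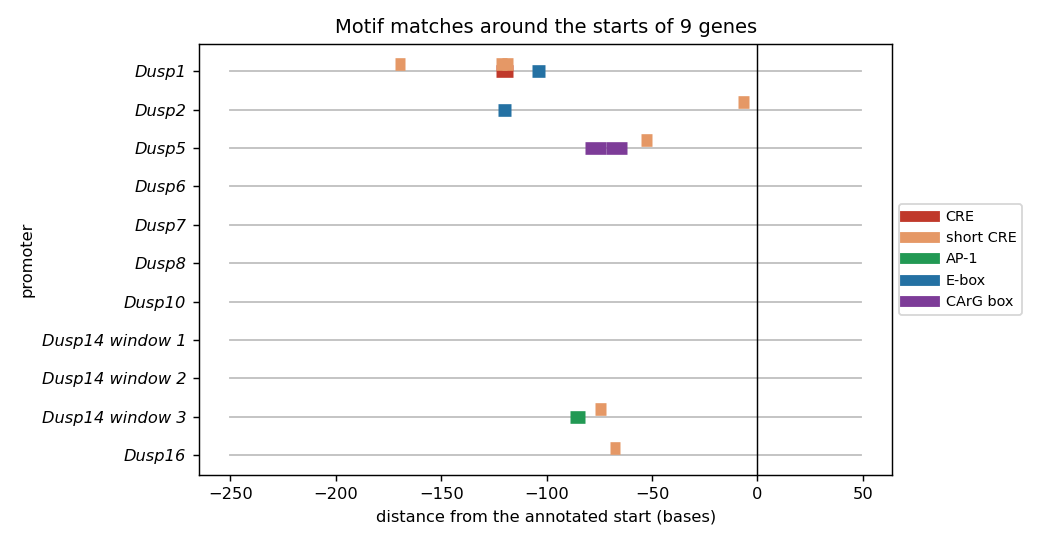
Matches of the motifs in the promoter windows of the 9 genes with a sequence, by distance in bases from the annotated start (0), with the short CRE drawn slightly above the line. Dusp1 holds the only full CRE, Dusp5 the only CArG boxes, and the windows of Dusp6, Dusp7, Dusp8 and Dusp10 are empty; the EGR site matched nowhere and is not drawn.

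The array reads each gene with a probe of 60 bases. The probes of Dusp1, Dusp2 and Dusp4 are printed because the earliest change, the latest change and a late signal below the background limit rest on them. The files place them on the build rn4: the Dusp1 probe (NM_053769) at chr10:16944342-16944661, the Dusp2 probe (NM_001012089) at chr3:114839775-114839834 and the Dusp4 probe (NM_022199) at chr16:61111773-61119563 on the minus strand. The spans of Dusp1, 320 bases, and of Dusp4, 7791 bases, are longer than the probe, so that these 2 probes match the genome in separate pieces. The Dusp5 probe (NM_133578) lies at chr1:259767436-259767495.
Dusp1 probe: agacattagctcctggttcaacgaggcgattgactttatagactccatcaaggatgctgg
Dusp2 probe: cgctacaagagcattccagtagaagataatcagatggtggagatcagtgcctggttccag
Dusp4 probe: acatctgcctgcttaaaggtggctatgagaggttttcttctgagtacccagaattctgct

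After PACAP38, 3 nuclear, inducible phosphatases were counted as higher, each with its own time course, and no member was counted as lower. Dusp1 was higher from 15 min on, Dusp5 from 30 min and Dusp2 from 60 min, and at 120 min the folds of PACAP38 over control were 23.2, 6.69 and 11.2. A gene was counted as higher with a fold of at least 2, or lower with a fold of at most 0.5, where in addition the scanner software's p-value of the spot was below 0.01 on both arrays. By this rule 0 of the 9 genes were counted as higher at the first 2 time points, 5 and 10 min, where 0% and 0.0659% of all probes were. Dusp1 alone was counted at 15 min, beside 0.0902% of all probes. With Dusp5 the count was 2 by 30 min, beside 0.249%. With Dusp2 it was 3 by 60 min, beside 0.871%, and the count of 3 held for 120 min, beside 1.95%. Of all probes 2.09% were counted as higher at 1 or more time points. These shares are over all probes, dim ones included, while the members were counted as genes by their brightest probe. The 2 are thus not in the same unit. None of the 9 genes was counted as lower at any time point, against 1.81% of all probes at 1 or more. Among the 7 members whose RNA was measured at 120 min, meaning that neither RNA was below the background limit on both arrays, the median fold was 1.51, beside 0.984 over the 18327 probes measured then.

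Dusp1, which inactivates ERK, JNK and p38 in the nucleus, showed the earliest and largest change among the members with a measured RNA. On the arrays with PACAP38 in Cy5 its folds, in the order of the 6 time points from 5 to 120 min, were 1.12, 2.09, 6.89, 14.8, 23.0 and 29.4. On the arrays with PACAP38 in Cy3 they were 0.885, 1.83, 6.72, 10.1, 15.0 and 18.3 in the same order. The arrays stood on either side of the control at 5 min and on either side of a fold of 2 at 10 min, and both were above it from 15 min on. The geometric means were 0.994, 1.96, 6.81, 12.2, 18.6 and 23.2. The ranges of the arrays of 60 and 120 min overlapped, while within each dye orientation the fold of 120 min was the higher, by 1.28 times with PACAP38 in Cy5 and 1.22 times in Cy3. Under normexp with median centring this order turned, with folds of 8.96 at 60 min and 8.36 at 120 min. In 2 settings, with the limit at a fold of 1.5 or with the Cy5 array alone, Dusp1 was the 1 member counted at 10 min.

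The level behind these folds came from both RNAs. The processed signal of Dusp1 in PACAP38 RNA was 60.3 and 46.2 on the 2 arrays of 5 min, against 5055 and 4552 on those of 120 min. In control RNA the first time point gave 53.9 and 52.2, and the last gave 172 and 249. To compare time points, each signal was set against the 75th percentile of its array and dye. On that scale the control level of Dusp1 was 2.46-fold higher at 120 than at 5 min, and its mean over 60 and 120 min was 1.97-fold that of the earlier time points. Over the 14481 probes above background in the control RNA of all 12 arrays, the highest control level was at the median 1.32-fold the lowest, with 5% of probes beyond 2.04-fold, and the mean over 60 and 120 min was at the median 0.937-fold that of the earlier time points, with 5% of probes beyond 1.35-fold. The control level of Dusp1 was thus beyond both of these limits. The PACAP38 level of Dusp1 was 57.5-fold higher at 120 than at 5 min, more than the ratio to the control of the same time point shows. Its size differed under another processing, normexp with an offset of 50 followed by loess, where the fold was 2.15 after 15 min, 3.84 after 30 min, 8.87 after 60 min and 9.71 after 120 min, and Dusp1 was still counted at each of these time points.

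Dusp5, a nuclear phosphatase selective for ERK, passed the limit 1 time point later than Dusp1 and was above background in both RNAs on all 12 arrays. Its folds from 5 to 120 min were 1.03, 1.12, 1.41, 2.46, 5.79 and 7.19 with PACAP38 in Cy5. With PACAP38 in Cy3 they were 1.02, 1.07, 1.28, 2.20, 5.18 and 6.22. The arrays of neighbouring time points did not overlap at any step. The PACAP38 signal went from 3268 and 4362 on the first pair of arrays to 46520 and 40364 on the last, while the control signals lay between 2836 and 6485 at all time points. On the scale of the 75th percentile the PACAP38 level of Dusp5 was 7.25-fold higher at 120 than at 5 min, and the highest control level was 1.74-fold the lowest. Normexp with loess gave 2.19 at 30 min, with Dusp5 no longer at 2 on both arrays, and 6.27 at the last time point.

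Dusp2, a nuclear phosphatase known from activated immune cells, was counted as higher late, from 60 min. Its folds from 5 to 120 min were 1.35, 0.920, 1.33, 1.90, 2.87 and 12.8 with PACAP38 in Cy5. With PACAP38 in Cy3 they were 0.905, 0.595, 1.31, 1.09, 2.05 and 9.76. The arrays of 120 min stood far above those of every earlier time point, and the step from 60 to 120 min, 4.60-fold, was on a single slide. The control signals of Dusp2 lay between 59.8 and 183, near those of the PACAP38 RNA until 30 min, and the PACAP38 signals reached 2326 and 1789 in the end. At 10 min, where both arrays were below 1, the control level was the highest of the 6, 1.92-fold that of 30 min. With normexp and loess the fold was 1.42 at 60 min, where Dusp2 was then not counted, and 3.71 at 120 min.

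Dusp4, the remaining nuclear member, which acts on ERK and JNK, could not be given a fold. Neither RNA was well above background on any array. Its PACAP38 signals from 5 to 120 min were 7.37, 7.85, 6.21, 12.7, 22.0 and 45.6 with PACAP38 in Cy5. With PACAP38 in Cy3 they were 5.29, 7.29, 6.30, 9.03, 13.7 and 41.0. The control signals lay between 5.49 and 9.59 on all 12 arrays. PACAP38 and control thus did not overlap at 60 and 120 min, but all values were below the background limit of the scanner software, and the spot p-value was below 0.01 on 1 of the 2 arrays of 120 min. Where that p-value was not asked for, 4 genes were counted as higher at 120 min, Dusp4 among them.

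**Figure D2:**
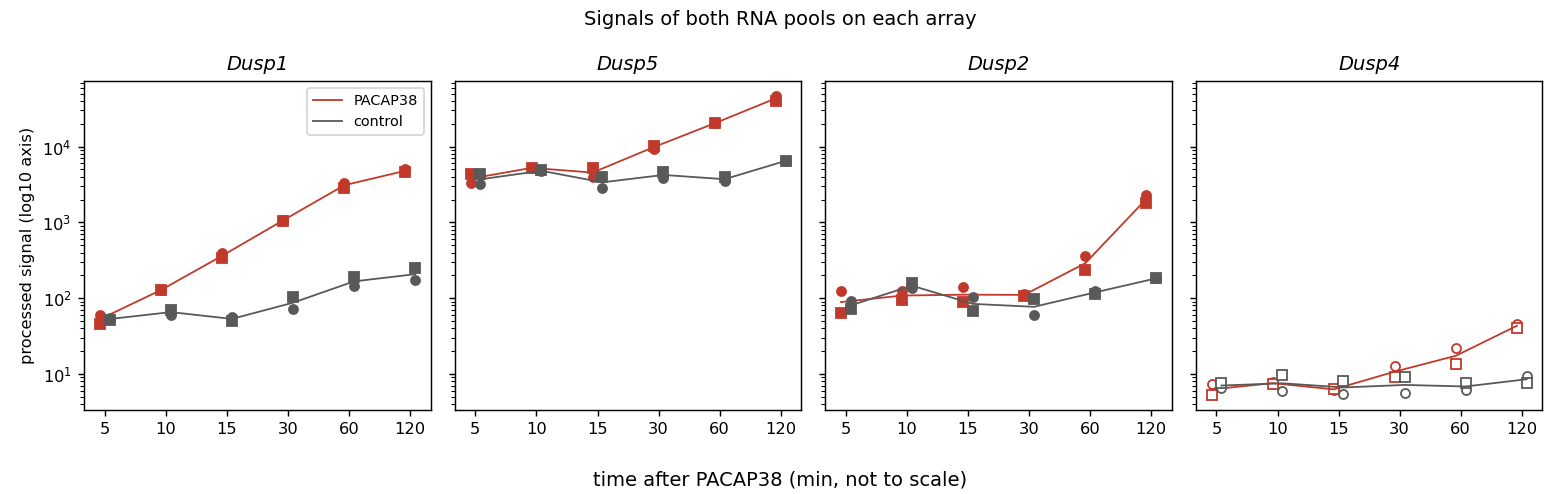
Processed signal (log10 axis) of PACAP38 RNA (red) and control RNA (grey) by time, circles for the array with PACAP38 in Cy5 and squares for the other, with lines through the geometric means; open symbols mark an RNA not well above background on both arrays. PACAP38 stands above the control without overlap at every time point from 10 min for Dusp1, from 30 min for Dusp5 and Dusp2, and from 60 min for Dusp4, whose symbols are all open.

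The cytoplasmic, ERK-selective members were not counted at any time point. Dusp6, which is widely used as a readout of ERK activity, was dim: its signals lay below the background limit in both RNAs at 5 min and in the control at 10 min. From 15 to 120 min its folds were 1.24, 1.5, 1.37 and 1.57 with PACAP38 in Cy5, and 0.873, 1.02, 1.16 and 1.39 with PACAP38 in Cy3. The geometric mean reached at most 1.48, at 120 min, and was not counted. Both RNAs of Dusp6 were brighter late than early, with control signals of 15.9 and 19.4 on the first pair of arrays and of 75.3 and 74.6 on the last. Dusp7 was not well above background on any array, with signals of 4.57 to 17.2 in PACAP38 RNA and 4.93 to 15.5 in control RNA, so that nothing can be said of its change.

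The members directed at JNK and p38 and the atypical member were not counted at any time point either. Dusp8, with most arrays above background, had folds from 5 to 120 min of 0.695, 1.43, 0.848, 1.53, 1.29 and 1.90 with PACAP38 in Cy5. With PACAP38 in Cy3 they were 0.616, 0.852, 0.971, 0.942, 1.30 and 1.21, and its geometric mean ran from 0.654 to 1.51. At 5 min 1 of the 2 arrays was above background in each RNA. Dusp16 was flat: the geometric means of its brighter probe lay between 0.910 and 1.01, and those 12 arrays gave folds of 0.788 to 1.11. This probe carries a predicted transcript (XM_008763374) that was not matched in the RefSeq table. The matched probe was not above background on any array, so the 2 probes of this gene cannot be compared. Dusp14 was slightly higher at 15 min, with 1.23 and 1.44, and lower than the control on all 4 arrays of the last hour, with 0.727 and 0.783 and then 0.735 and 0.738. At 15, 60 and 120 min its spot p-value was not below 0.01 on either array. Normexp with loess gave Dusp14 folds of 1.07, 0.909 and 0.914 at these time points. The lowest geometric mean of Dusp14 was 0.736, well inside the limit of 0.5. Dusp10 had no probe under its name. One probe whose description names Dusp10 carries a transcript identifier in place of the symbol, and was not above background in either RNA on any array, with signals of 3.84 to 9.11.

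**Figure D3:**
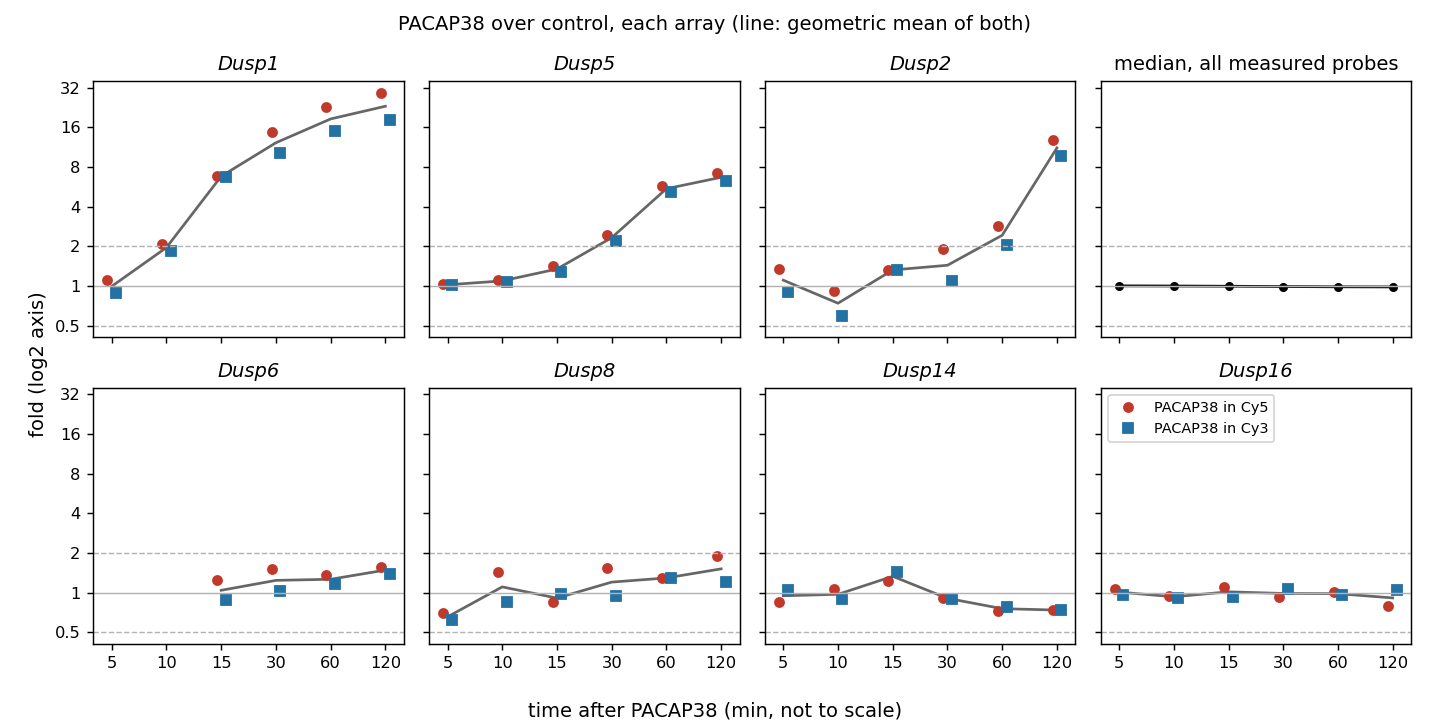
Fold of PACAP38 over control (log2 axis) by time for the 7 members with a measured RNA, each array a point and the line the geometric mean, with dashed lines at 2 and 0.5; time points at which an RNA was below background on both arrays are left out. By the geometric mean, Dusp1, Dusp5 and Dusp2 leave the band between the dashed lines at 15, 30 and 60 min. The Dusp1 array with PACAP38 in Cy5 was already at 2.09 after 10 min. The other members stay inside the band, and the median of all measured probes stays between 0.984 and 1.00.

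Across time points the change can be tested, with each time point as 1 replicate. A straight line of the dye-averaged log2 fold on log2 time was fitted with limma for all 20203 probes with an RNA well above background at 1 or more time points, and 7 of the 9 genes entered. Dusp1 rose by a slope of 1.03 (SE 0.136) log2 units of fold per unit of log2 time, with an adjusted p of 0.0456 by limma. Dusp5 rose by 0.68 (SE 0.0748), with an adjusted p of 0.0418 by limma. The other slopes did not pass: 0.70 (SE 0.169) for Dusp2 at an adjusted p of 0.0840, 0.23 (SE 0.0490) for Dusp8 at 0.0773, 0.14 (SE 0.0558) for Dusp6 at 0.162, -0.12 (SE 0.0608) for Dusp14 at 0.257 and -0.02 (SE 0.0263) for Dusp16 at 0.665. Rising slopes made up 0.525% and falling slopes 0.203% of the probes tested. For the mean over the 6 time points limma called 0 of 20203 probes (0%), with 1845 at an unadjusted p below 0.05, and the largest mean among the members was 2.68 (SE 0.638) for Dusp1 at an adjusted p of 0.531.

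These calls stand close to the threshold: of 16 alternative fits, 13 lost the call of Dusp1 and 12 that of Dusp5, with the slope positive in each. Of these fits 1, on the deposited table of ratios, repeats the main input and so kept both calls. The slope of Dusp1 lost its call with any single time point left out, at adjusted p values by limma of 0.0612 to 0.147, and that of Dusp5 with any but 5 min left out, at up to 0.166. Each slide held 2 time points (5 with 10, 15 with 30 and 60 with 120 min), so slide and time are partly confounded. With slide as a block the slopes were 0.71 for Dusp1 and 0.39 for Dusp5, both at an adjusted p of 0.894 by limma. Within each slide the later time point had the higher fold of Dusp1, by 1.97, 1.80 and 1.25 times, and of Dusp5, by 1.07, 1.73 and 1.22 times, on both arrays in every case, except that the last step of Dusp1 turned under normexp with median centring. For Dusp2 the later fold was 0.668, 1.09 and 4.60 times the earlier, with the largest step last, and on time in minutes its slope passed, at an adjusted p of 0.00286 by limma, in a fit where 10.2% of the probes tested had a rising slope called.

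**Figure D4:**
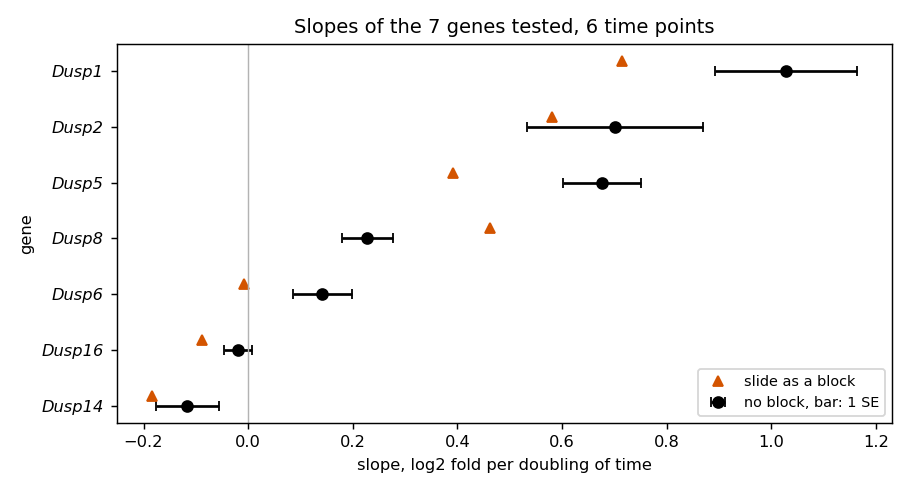
Slope of log2 fold on log2 time for the 7 genes tested by limma, with 1 SE of the fit (circles), and the slope with slide as a block (triangles). Dusp1 at 1.03 and Dusp5 at 0.68 passed the threshold without the block; with it no slope passed and that of Dusp6 was near 0.

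The genes with the most similar time courses differed for the 3 phosphatases. Likeness was the root mean square difference of dye-averaged log2 folds over the 6 time points. It was taken among 12629 gene names with at least 1 RNA well above background on both arrays of every time point. Nearest to Dusp1 were Nr4a1, at 0.48, Junb, at 0.52, and Atf3, at 0.64, all genes of transcription factors of the immediate early or stress response. Nr4a1 and Junb were counted as higher at 5 time points, from 10 min, and Dusp1 at 4, and at 120 min Dusp1 with a fold of 23.2 stood above Nr4a1, at 12.6, Junb, at 14.2, and Atf3, at 16. Dusp5 had much closer neighbours: Nfil3, a repressor of the bZIP family, at 0.12, Dyrk3, a dual-specificity kinase, at 0.18, and Ppp1r15a, a regulatory subunit of protein phosphatase 1, at 0.18, all with folds between 6.46 and 8.29 at 120 min. For Dusp2 they were LOC102555114, described as similar to disks large homolog 5, at 0.32, the cell adhesion gene Pvr at 0.33 and Spag4 at 0.34, with folds of 11.9, 8.54 and 6.96 at 120 min. These distances rest on 6 time points of the same arrays and describe the curves only.

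**Figure D5:**
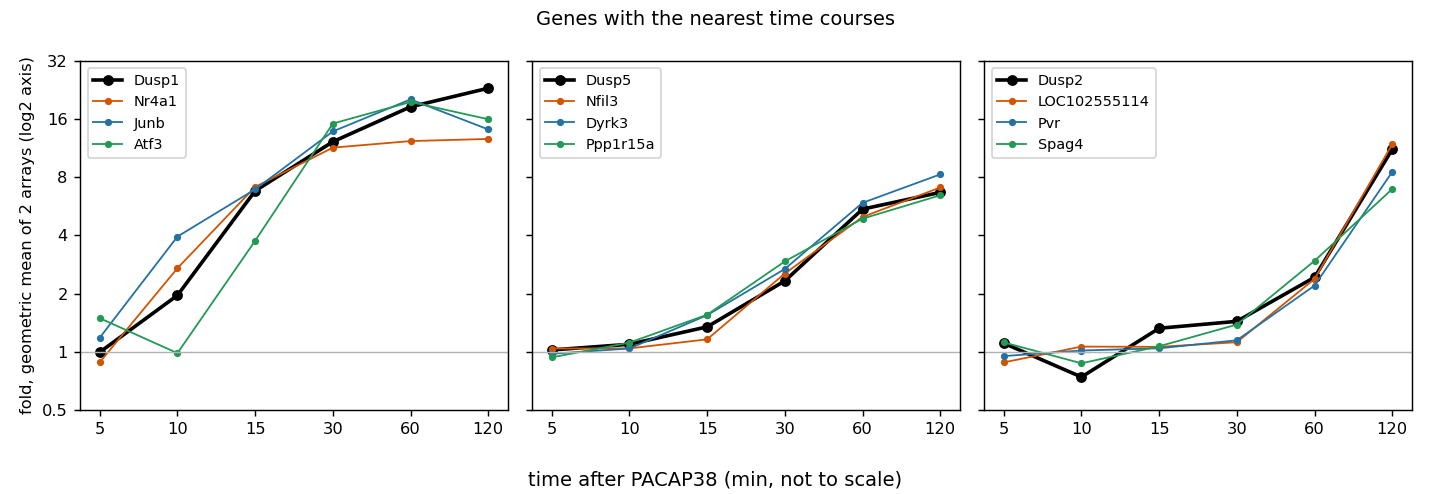
Geometric mean fold of PACAP38 over control (log2 axis) by time for Dusp1, Dusp5 and Dusp2 (black) and the 3 genes with the nearest course to each. The courses near Dusp1 reach a fold of 3.75 or more by 15 min, those near Dusp5 pass 2 at 30 min, and those near Dusp2 pass 2 only at 60 min.

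The kinases that these enzymes inactivate, and the other phosphatases of the pathway, were described by the same count. Of the ERK cascade, 20 of 21 listed genes had a probe, and none was counted as higher or lower at any time point. Over all probes the shares were 2.09% higher and 1.81% lower at 1 or more time points. A count of 0 among 20 genes is near those shares. The median fold of the ERK cascade was 0.958 over the 19 measured at 120 min. Of the JNK and p38 cascades all 22 had a probe and 2 were counted as higher at 1 or more time points, beside 2.09% of all probes. Mapkapk2, a kinase downstream of p38, had folds of 2.42 and 2.65 after 60 min, then 6.52 and 5.56 after 120 min, and Map2k3, a kinase that activates p38, had 2.33 and 3.13 at 120 min. The median fold of that list was 0.905 over the 18 genes measured at 120 min, beside 0.984 over all measured probes. Among 16 other dual-specificity phosphatases with a probe 0 were counted as higher and 2 as lower at 1 or more time points, beside 1.81% of all probes. Dusp9, a cytoplasmic MAP kinase phosphatase, had folds of 0.431 and 0.423 at 120 min, and Dusp12, an atypical phosphatase, had 0.417 and 0.438 at 120 min, where its PACAP38 RNA was above background on 1 of 2 arrays. Under normexp with loess both lower calls were lost, with folds of 0.678 for Dusp9 and 0.874 for Dusp12. The median fold of these phosphatases at 120 min was 0.840 over 12 measured genes. None of the 8 other phosphatases that act on MAP kinases or their kinases, such as Ptpn5 and Ppm1d, was counted, which is near the same shares. Their median fold was 1.06 over 6 measured at 120 min.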

How the data were processed

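Members, gene lists and tests were chosen with earlier results of these data known. PC12 RNA pools were hybridised to 12 Agilent 4x44K rat arrays with 2 colours. The authors' software (Feature Extraction, version 11.0.1.1 per the submitters' processing notes; the file headers and the methods name other versions) made the deposited processed intensities: background-subtracted, detrended and LOWESS dye-normalized. The deposited files also hold mean and background intensities without normalization. The deposited table holds the log10 ratio of processed Cy5 over Cy3, equal to that from the signals. The deposited p-value of a spot comes from the software's error model for its log ratio.

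The PACAP38 signal was divided by the control signal of the same array, by dye orientation. The 1639 control spots and spots with outlier flags were left out, and log2 ratios of a probe's spots averaged. No spot was saturated, and 38.4 to 49.6% of spots per array were well above background. Where a gene had several probes, the brightest gave its value. Named genes were all members, counted genes of the pathway lists (at most 6) and the 3 genes nearest in course to each counted member. Of the 10 member probes, 9 matched a RefSeq transcript of that symbol. limma 3.58.1 in R 4.3.3 fitted slopes and means with Benjamini-Hochberg adjustment over 20203 probes. On simulated ratios with 200 changed probes of 20203, at an effect of 1.5 log2 units, larger than any member's slope, the slope fit recovered 100% and 6.54% of its calls were false. For the mean fit these were 96.5% and 9.39%. Alternatives were normexp with an offset of 50, single dyes, other limits, filters, slide and leaving out time points. The number of arrays limits the precision. One marker gene of the other cells is not reported here.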

Additional observations from a re-analysis of the deposited data

Results flagged for a closer look

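The folds of Dusp1 and of Dusp5 rose across time points by the limma slopes on log2 time, 1.03 and 0.68, each tested against 0. The slopes were not tested against each other. Of 16 alternative fits, 13 lost the call of Dusp1 and 12 that of Dusp5. With slide as a block both stood at an adjusted p of 0.894 by limma. For 3 further members both arrays of 1 time point were on one side of the control and both arrays of another on the opposite side. The log2 fold of Dusp2 at 120 min exceeded that at 10 min by 3.92, that of Dusp8 at 120 min exceeded that at 5 min by 1.21, and that of Dusp14 at 15 min exceeded that at 120 min by 0.85. With normexp and loess these differences were 2, 0.22 and 0.23. These 3 differences were not tested, since each time point is 1 replicate.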

How the results depend on the processing

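No paired analysis was possible because the numbers 1 and 2 mark the dye orientation of the same pools, which were averaged, beyond the ratios within each array, which already pair PACAP38 with control. Of 132 counts of members under an alternative, 129 stayed within 1.5 times the reported count. Most of these compared 0 with 0, as for all lower members and for higher members at 5 min. Every member probe had 1 spot, so the median over spots could not differ. At 60 min the count of higher members fell from 3 to 2 under both normexp settings, without Dusp2, which was within that limit. The count of higher members at 10 min was 1 with a fold limit of 1.5 and with PACAP38 in Cy5 only, and that at 30 min was 1 under normexp with loess. The 147 probes called for the slope became 29 with PACAP38 in Cy3 only, 3 in Cy5 only, 27 under normexp with loess, 1 under normexp with median centring, 976 where both RNAs had to be above background throughout, and 5335 on time in minutes. They were 0 with slide as a block, with a prior variance trend and with no filter on dim probes, and 0 to 153 with 1 time point left out. For the mean, 0 probes became 3535 with PACAP38 in Cy3 only, 2310 in Cy5 only and 0 to 15 with 1 time point left out. The cause of these shifts was not tested. In all, 41 of the 200 alternative log2 folds of members moved by more than the spread between arrays, all 41 under normexp. Only the normexp settings could move by that measure. A single array always lies nearer the mean of its pair than their standard deviation, and the deposited ratios equal the processed ones. No fold of a member at a time point where it was counted changed sign. Signals below the background limit leave Dusp4, Dusp7 and Dusp10 without a measured change.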
